A study of Mus musculus with 4 samples.

Results

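The genes described here are 10 members of the purinergic system: the nucleotide receptors P2ry12, P2ry13, P2ry6, P2rx4 and P2rx7, the related receptor Gpr34, the adenosine receptors Adora3 and Adora2a, and the nucleotide-degrading enzymes Entpd1 and Nt5e. They were chosen by name, and all 10 were found among the 32285 genes of the count tables. Droplet scRNA-seq (RNA sequencing of single cells) was run on CD45+ cells, which are microglia and other leukocytes, of the C57B6/J mouse brain on the side of a cortical injury, separately for the thalamus and for the hippocampus (HPC). All mice were injured, so the thalamus was compared with the HPC and nothing with uninjured tissue. Age, sex and time since injury were not in the labels. The methods describe a pool of 4 mice per region, and the cells were told apart by oligonucleotide tags as 4 sets per region (n = 4 and 4). The labels do not say that a set is a mouse, and p-values therefore measure the spread between sets, which may be technical. Since the 4 sets of a region were run as 1 library, a difference between regions and one between libraries cannot be told apart.

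Damaged cells release ATP and ADP, which act on ion channels of the P2X family and on G protein-coupled receptors of the P2Y family. Ectoenzymes on cell surfaces then cut ATP and ADP to AMP (CD39, encoded by Entpd1) and AMP to adenosine (CD73, encoded by Nt5e), and adenosine acts on receptors of its own. In the brain the ADP receptor P2Y12 is known as a marker of resting microglia and for guiding their processes towards sites of damage.

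A set held 2072 to 5389 cells after filtering, 24939 in all, with a median of 4262 to 4657 unique molecules (UMIs) per cell. Levels are UMIs of a gene per 10000 UMIs of all genes, summed over the cells of a set. They compare 1 gene between groups of cells, not 1 gene with another. Cells were sorted into classes by marker genes that held no member. Of the kept cells, 19370 were microglia-like, 2777 T-like, 799 neutrophil-like, 220 monocyte-like, 157 border macrophage-like, 111 NK-like, 76 B- or plasma-like and 84 dendritic-like, and 1345 fell into no class or several. Microglia-like cells were split further by the mean log2 level of marker lists into 12340 homeostatic-like cells, 2220 DAM-like cells (disease-associated microglia, from 12 genes such as Spp1, Cst7, Lpl and Gpnmb) and smaller states. These states are ranges of a score and not types, and 928 microglia-like cells lay within 0.25 of the DAM cut of 2.0. Of the microglia-like cells of a set, 14.7% to 37.6% were DAM-like in the thalamus, against 0.56% to 3.99% in the HPC. HPC set 1 stood apart from the other HPC sets in several members, and results that rest on it are given with and without it. No cell barcode occurred in more than 1 set of a region, and 65 occurred in both regions.

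The members lie on 7 chromosomes of the mouse genome (GRCm38, GENCODE M21). P2ry12 (chr3:59216272-59262871, minus strand) and P2ry13 (chr3:59207892-59210882, minus strand) are neighbours 5390 bases apart, and both lie inside Med12l on the other strand. P2rx7 (chr5:122643911-122691432, plus strand) and P2rx4 (chr5:122707544-122729738, plus strand) are 16112 bases apart. Adora3 (chr3:105870858-105908926, plus strand) shares its locus and strand with Tmigd3, so the split of reads between these genes is uncertain. The other members are P2ry6 (chr7:100937630-100974649, minus), Gpr34 (chrX:13632089-13640858, plus, inside Cask on the other strand), Adora2a (chr10:75316877-75334784, plus), Entpd1 (chr19:40612366-40741602, plus) and Nt5e (chr9:88327197-88372092, plus).

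RefSeq promoter windows on GRCm38.p6, from 250 bases before to 50 bases after a start site, were found for 7 of the members. Shown are P2ry12, with the largest difference between microglial states, Adora3, which was lower in DAM-like cells and in the thalamus, and P2rx4, the member that differed in the opposite direction. Each is printed 5′ to 3′ along its gene, with capitals for matches to the ETS core GGAAGT or the longer PU.1 motif GAGGAAGT, which contains it, on either strand.
P2ry12, chr3:59262936-59263235, minus strand: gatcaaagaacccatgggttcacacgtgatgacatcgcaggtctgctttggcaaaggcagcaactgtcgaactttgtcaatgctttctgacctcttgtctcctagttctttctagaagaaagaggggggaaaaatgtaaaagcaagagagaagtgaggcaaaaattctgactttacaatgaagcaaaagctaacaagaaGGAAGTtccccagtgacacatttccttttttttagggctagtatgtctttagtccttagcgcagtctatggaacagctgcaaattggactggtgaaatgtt
Adora3, chr3:105904171-105904470, plus strand: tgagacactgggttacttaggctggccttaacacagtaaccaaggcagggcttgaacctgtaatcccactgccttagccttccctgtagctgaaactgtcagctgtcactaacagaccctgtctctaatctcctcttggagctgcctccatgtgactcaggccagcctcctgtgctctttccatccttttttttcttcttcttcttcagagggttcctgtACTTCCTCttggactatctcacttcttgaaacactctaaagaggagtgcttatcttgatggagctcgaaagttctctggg
P2rx4, chr5:122707294-122707593, plus strand: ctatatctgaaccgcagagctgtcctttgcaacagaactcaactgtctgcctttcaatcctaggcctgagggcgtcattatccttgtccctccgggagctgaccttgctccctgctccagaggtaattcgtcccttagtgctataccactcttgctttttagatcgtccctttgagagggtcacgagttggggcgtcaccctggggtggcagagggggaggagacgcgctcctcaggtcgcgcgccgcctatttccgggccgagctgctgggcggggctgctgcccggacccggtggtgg
The ETS core was in 23.8% of all 32851 promoter windows and the longer motif in 3.20%. Of the 9 windows of members, 4 held the core. P2ry12 had it 51 bases before its start site, and Adora3 had the longer motif 30 bases before its own. Both windows of P2rx7 had the core, 18 and 3 bases after a start site, the latter within the longer motif. These letters were in none of the windows of P2rx4, P2ry13, Entpd1 and Nt5e, so members that were lower in DAM-like cells were found with and without them. Such matches are descriptions of the letters and not binding sites.

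With all sets pooled, P2ry12, P2ry13, Gpr34 and Adora3 had their highest level in microglia-like cells. P2ry6, P2rx4 and P2rx7 were highest in border macrophage-like cells, Entpd1 in neutrophil-like cells, Adora2a in NK-like cells and Nt5e in T-like cells. The G protein-coupled receptors P2ry12 (an ADP receptor) and Gpr34 (a receptor for lysophosphatidylserine that is related to P2Y receptors) had 16.3 and 9.70 UMIs per 10000 in microglia-like cells of all sets. In T-like cells, which should lack both, P2ry12 had 0.345 and Gpr34 had 0.432. As a share of the level in microglia-like cells of the same region, P2ry12 in T-like cells reached 2.07% (thalamus) and 2.31% (HPC), where 6 microglial marker genes had 3.49% to 4.29% and 2.78% to 3.53%. P2ry12 in T-like cells therefore lay below the range of these markers in both regions. The level of free RNA itself was not measured. Gpr34 reached 4.59% and 4.48%, above the range of these 6 markers in both regions. Other genes compared, Cst3 and Selplg, had 4.60% and 54.3% in T-like cells of the thalamus, so the reading depends on the markers chosen. A P2ry12 UMI was found in 93.2% of microglia-like cells (median 4662 UMIs per cell) and in 10.4% of T-like cells (median 3558).

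P2ry6, a receptor for UDP, and the ATP-gated channels P2rx4 and P2rx7 were shared between microglia-like and border macrophage-like cells. In border macrophage-like cells P2ry6 had 3.65, P2rx4 2.40 and P2rx7 2.45 UMIs per 10000, against 3.38, 1.65 and 2.35 in microglia-like cells. Border macrophage-like cells were few (83 cells in the thalamus and 74 in the HPC). Without HPC set 1, P2rx7 had 2.06 in border macrophage-like and 2.29 in microglia-like cells, the other order. The order turned between regions for P2rx7, which had 1.57 ± 0.491 (SD, n = 3 sets) in border macrophage-like cells of the thalamus and 3.70 ± 0.401 (n = 2 sets) in those of the HPC, against 2.15 and 2.49 in microglia-like cells. P2ry12 and Gpr34 were lower in border macrophage-like cells, at 2.51 and 2.31. The gate of these cells set an upper limit on the number of microglial marker genes detected, and did not require that they lack them. Monocyte-like cells had P2ry6 at 1.32 and P2rx4 at 1.12, with P2ry12 at 0.514.

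Entpd1 had 7.29 UMIs per 10000 in neutrophil-like cells and 6.67 in homeostatic-like microglia. This order rested on HPC set 1, which held 450 of the 799 neutrophil-like cells and had the highest value, 8.74. Without it Entpd1 had 5.39 in neutrophil-like and 6.95 in homeostatic-like cells, and the mean over sets was 5.82 ± 1.66 (SD, n = 6 sets with at least 20 such cells) and 6.49 ± 1.03 (n = 8). In the other 5 of these 6 sets neutrophil-like cells had 3.98 to 6.44. Neutrophil-like cells also had P2ry12 at 2.78, which was 18.9% of the level in microglia-like cells of the thalamus and 15.7% in the HPC, where 6 microglial marker genes had 2.43% to 13.8% in neutrophil-like cells of either region. P2ry13, another ADP receptor, had 0.668, or 42.0% and 25.2% of the microglia-like level. The median neutrophil-like cell had 1936 UMIs, fewer than in the other classes.

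Adora2a and Nt5e were close to absent in microglia-like cells, with 18 and 53 UMIs among 94801373. That is 0.0019 UMIs per 10000 for Adora2a (95% Poisson interval 0.00112 to 0.0030, counting error only) and 0.00559 for Nt5e (0.00419 to 0.00731). Adora2a, a receptor that raises cAMP, had its highest level in NK-like cells, at 0.489 (0.31 to 0.733), followed by dendritic-like cells at 0.329 (0.201 to 0.508). These intervals overlap, and without HPC set 1, which held 59 of the 111 NK-like cells, the levels were 0.331 and 0.235. Nt5e was highest in T-like cells, at 1.06 (1.00 to 1.13), and had 0.549 (0.441 to 0.677) in neutrophil-like cells. Without HPC set 1 these levels were 0.806 (0.742 to 0.874) and 0.562 (0.400 to 0.769), with intervals that overlap. Neutrophil-like cells were above T-like cells in HPC set 4 (0.904 against 0.528) and thalamus set 3 (1.34 against 0.600), from 6 and 4 UMIs. In all other sets T-like cells were higher. In border macrophage-like cells 0 UMIs of Nt5e were found, which allows up to 0.0369 UMIs per 10000.

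**Figure D1:**
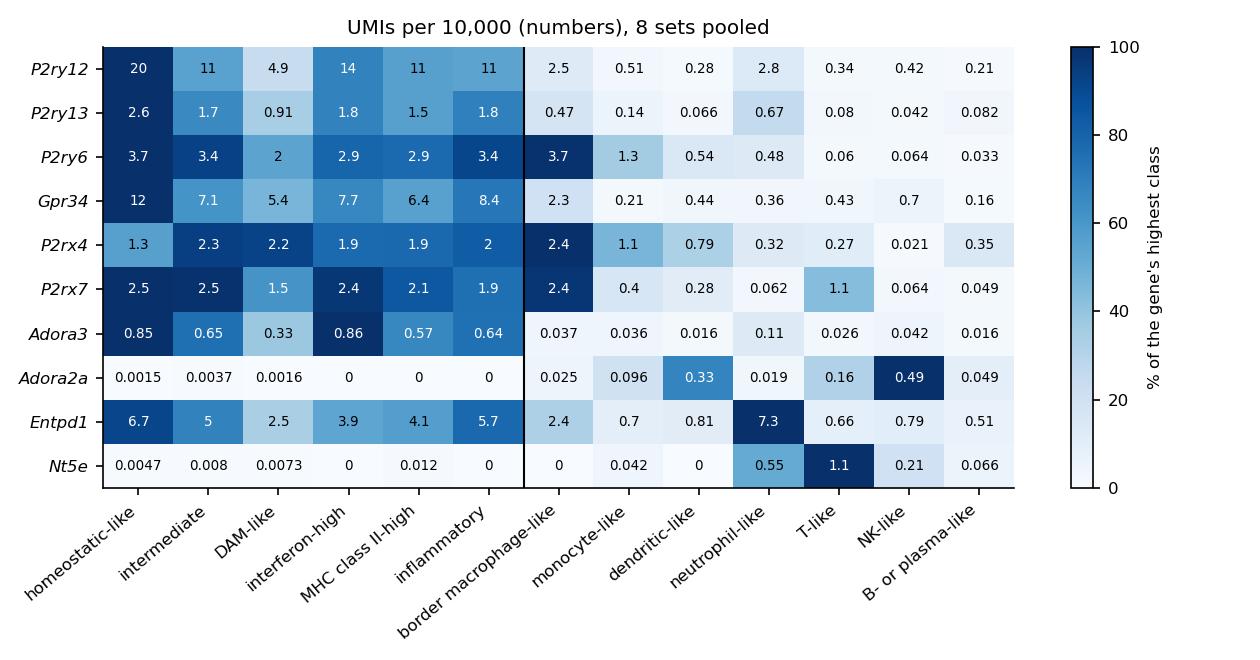
Levels of the 10 members (rows) in microglial states (left of the line) and other cell classes (columns). Numbers are UMIs per 10000 over all 8 sets, and shading is the percent of the highest class of the same gene. Entpd1 had 7.3 in neutrophil-like and 6.7 in homeostatic-like cells, an order that turned without HPC set 1 (5.39 and 6.95), and Nt5e had 1.1 in T-like cells.

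Among lymphocytes the enzymes and receptors were split by subset. Nt5e had 2.63 UMIs per 10000 (95% Poisson interval 2.25 to 3.06) in regulatory T-like cells of the HPC and 2.10 (1.66 to 2.61) in those of the thalamus. CD4 T-like cells had 1.49 (1.33 to 1.67) and 1.04 (0.895 to 1.198), and gamma-delta T17-like cells had 0.556 (0.424 to 0.718) and 0.498 (0.408 to 0.602). With the sets pooled, the order of these 3 subsets for Nt5e was the same in both regions, and their intervals did not overlap within a region. The HPC values rested largely on set 1, which gave 257 of the 302 Nt5e UMIs of CD4 T-like cells. Without it the HPC had 1.96 (1.21 to 2.99) in regulatory T-like, 0.740 (0.539 to 0.990) in CD4 T-like and 0.329 (0.184 to 0.542) in gamma-delta T17-like cells, where the intervals of the last 2 subsets overlap. In HPC set 4 alone CD4 T-like cells had 0.193 and gamma-delta T17-like cells 0.418, the other order, from 3 and 11 UMIs.

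Entpd1 had 1.74 and 1.63 UMIs per 10000 in regulatory T-like cells of the HPC and the thalamus, 1.19 and 0.988 in CD8 T-like cells, and 0.0755 and 0.149 in gamma-delta T17-like cells. Without HPC set 1, CD8 T-like cells of the HPC had 1.90 (1.16 to 2.94) and regulatory T-like cells 1.77 (1.07 to 2.77), from 21 and 24 cells, so that the order of these subsets turned with intervals that overlap.

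P2rx7, the channel that opens at high ATP and is known to trigger inflammasomes and T cell death, was highest in another subset. CD4 T-like cells had 1.65 (1.48 to 1.84) in the HPC and 2.02 (1.82 to 2.24) in the thalamus. Regulatory T-like cells had 0.761 and 0.699, CD8 T-like cells 0.418 and 0.815, with intervals that overlap those of regulatory T-like cells, gamma-delta T17-like cells 0.208 and 0.149, and NK-like cells 0.0644 and 0.0625. Without HPC set 1, CD4 T-like cells of the HPC had 1.69 and gamma-delta T17-like cells 0.0877. Adora2a had 0.081 in gamma-delta T17-like cells of both regions and 0.285 in regulatory T-like cells, where the HPC had 0.746 (0.322 to 1.47) without set 1, from 8 UMIs. The intervals cover counting error and not the spread between sets, and the subsets were gated on these same cells by other genes (245 regulatory T-like, 961 CD4 T-like, 169 CD8 T-like and 874 gamma-delta T17-like cells).

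**Figure D2:**
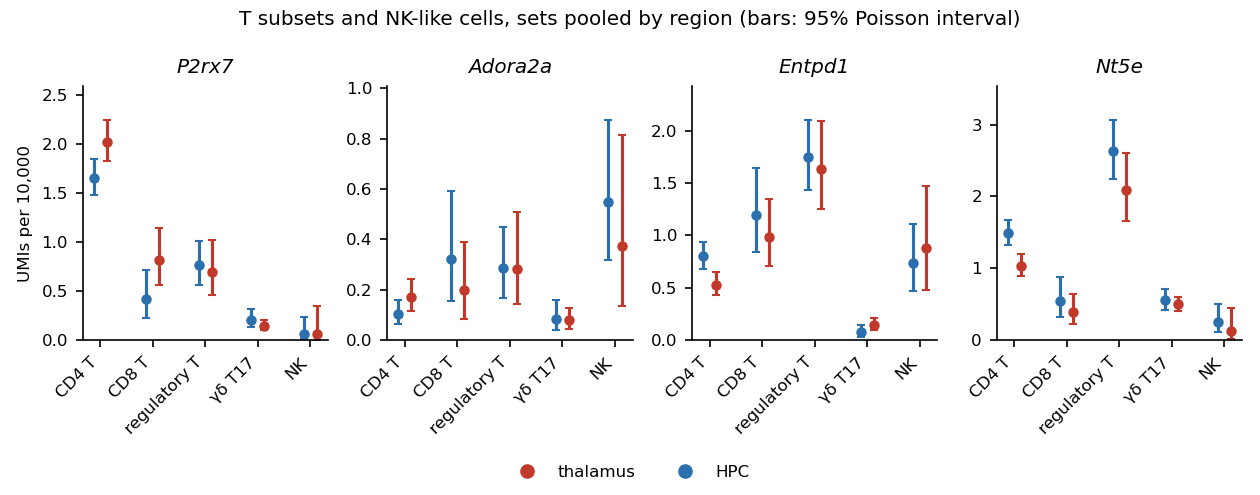
UMIs per 10000 (vertical axis) of P2rx7, Adora2a, Entpd1 and Nt5e in T subsets and NK-like cells (horizontal axis), with the sets of a region pooled and 95% Poisson intervals as bars. With all sets, Nt5e and Entpd1 were highest in regulatory T-like cells, at 2.63 and 1.74 in the HPC (1.96 and 1.77 without HPC set 1, where CD8 T-like cells had 1.90 of Entpd1), and P2rx7 in CD4 T-like cells, at 2.02 in the thalamus.

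In T- or NK-like cells, no member differed between the regions by edgeR's quasi-likelihood test on summed counts of 9125 genes, where 0.186% of the genes passed an adjusted p of 0.05 (0.153% higher and 0.0329% lower in the thalamus). Of the 7 members tested, only P2ry12 had an unadjusted p under 0.05 (log2 fold change -0.78 ± 0.24 SE, adjusted p = 0.376). DESeq2 called 0 members but gave no adjusted p for any of them, so it adds nothing here. As a share of the microglia-like level, P2ry12 in T-like cells lay below the range of the microglial marker genes given above. In microglia-like cells its level was 13.3 in the thalamus and 18.6 in the HPC. The part of free RNA in the difference between regions was not tested. For Nt5e the log2 fold change of the thalamus over the HPC was -0.40 ± 0.27 (adjusted p = 0.921) and for Entpd1 it was -0.54 ± 0.27 (adjusted p = 0.828). Without HPC set 1 the value for Nt5e was 0.13, on the other side of 0.

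Microglia-like cells were then compared between homeostatic-like and DAM-like states within each set. Of the 8 members tested, 7 were lower in DAM-like cells (P2ry12, P2ry13, P2ry6, Gpr34, P2rx7, Adora3 and Entpd1) and P2rx4 was higher. This contrast moved a large part of the genome: 52.1% of 11249 genes tested were called, 28.8% as lower and 23.4% as higher. The median log2 fold change was -0.98 over the 8 members. Sums of 7 sets entered the fit, with the set as a block, since HPC set 3 had only 11 DAM-like cells. States were scored on the same cells by genes that are not members. Homeostatic-like cells also needed a homeostatic score of at least 2.5, so the contrast is not one of the DAM score alone. Members that go with the homeostatic genes may be lower in DAM-like cells partly through this gate, and its part was not tested.

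P2ry12 had the largest difference. In homeostatic-like cells its level was 17.8, 19.1, 20.2 and 20.2 UMIs per 10000 in thalamus sets 1 to 4, and in DAM-like cells of the same sets 4.88, 4.82, 5.34 and 5.22. In the HPC, sets 1, 2 and 4 had 16.6, 22.5 and 23.1 in homeostatic-like cells against 4.23, 3.06 and 3.61 in DAM-like cells. Every DAM-like value lay below every homeostatic-like value, and the log2 fold change was -1.87 ± 0.10 (SE; edgeR, adjusted p = 3.04e-13). P2ry13, the neighbouring ADP receptor, had -1.23 ± 0.07 (adjusted p = 8.18e-13) and was lower in DAM-like cells of all 7 sets. Its level was 2.58 ± 0.26 (SD, n = 4) in homeostatic-like and 0.904 ± 0.0625 in DAM-like cells of the thalamus. DAM-like cells had a median of 5642 UMIs per cell and homeostatic-like cells 4606, and the part of depth was not tested.

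The adenosine receptor Adora3 and the enzyme Entpd1 were lower by similar amounts. Adora3 had 0.921, 0.853, 0.81 and 0.826 UMIs per 10000 in homeostatic-like cells of thalamus sets 1 to 4, and 0.32, 0.344, 0.387 and 0.328 in DAM-like cells (log2 fold change -1.15 ± 0.10, adjusted p = 1.03e-09). Entpd1 had 5.93 ± 0.656 (SD, n = 4 sets of the thalamus) against 2.54 ± 0.184, with DAM-like values from 2.33 upwards and all below the lowest homeostatic-like value of 5.12 (edgeR, log2 fold change -1.06 ± 0.07, adjusted p = 8.27e-12). In both genes the states did not overlap in the thalamus, and all HPC sets tested had the same direction. Gpr34 had -0.91 ± 0.09 (adjusted p = 5.16e-09), P2ry6 -0.56 ± 0.07 (adjusted p = 3.13e-07) and P2rx7 -0.44 ± 0.07 (adjusted p = 1.2e-05), each lower in all 7 sets. P2rx7 missed the threshold within the HPC alone (adjusted p = 0.109) and with equal numbers of cells per set (adjusted p = 0.0604).

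P2rx4, the ATP-gated channel known for its rise in activated microglia of the spinal cord, went the other way. Its level in homeostatic-like cells was 1.66, 1.26, 1.13 and 1.27 in thalamus sets 1 to 4, and 2.17, 2.21, 2.29 and 2.34 in DAM-like cells. HPC sets 2 and 4 had 1.17 and 1.202 against 2.28 and 2.48. HPC set 1 was the exception, with 1.96 in homeostatic-like and 1.86 in DAM-like cells. The log2 fold change was 0.92 ± 0.10 (adjusted p = 4.26e-08) with this set and 1.05 ± 0.08 (adjusted p = 8.79e-11) without it.

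**Figure D3:**
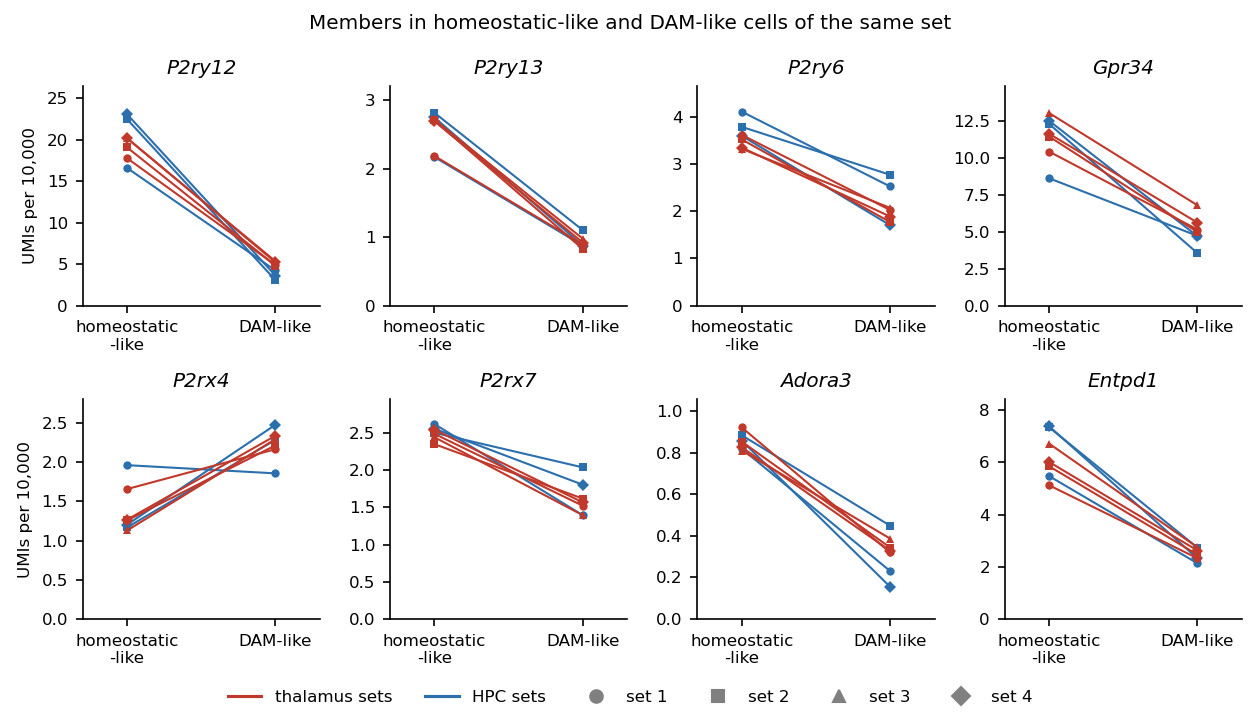
UMIs per 10000 (vertical axis, from 0) of 8 members in homeostatic-like and DAM-like cells of the same set, joined by a line, for 4 thalamus sets and 3 HPC sets with at least 20 DAM-like cells. All lines fall except those of P2rx4, which rise in 6 of 7 sets.

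Because the states are ranges of a score, levels were also followed in bins of the DAM score, 0.5 wide, over microglia-like cells. P2ry12 in the thalamus had 21.2 UMIs per 10000 below a score of 0.5, and 20.4, 14.5, 9.02, 7.20 and 4.95 in the following bins, and 3.18 at scores of 3 and over. In the HPC the same bins held 24.6, 20.9, 13.2, 7.53, 4.87, 4.08 and 1.36. The decrease was thus already present below the DAM cut, and it went on above it. P2rx4 in the thalamus had 0.926, 1.18, 1.77 and 2.16 in the bins up to 2.0, and 2.27, 2.28 and 2.19 above. Hence P2rx4 differed mainly between the low bins. P2ry6 in the HPC had 3.56, 3.82 and 3.90 in the bins up to 1.5 and 2.16 from 2.5 to 3. The HPC bins above 2.0 held only 106, 61 and 53 cells, most of them from set 1.

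**Figure D4:**
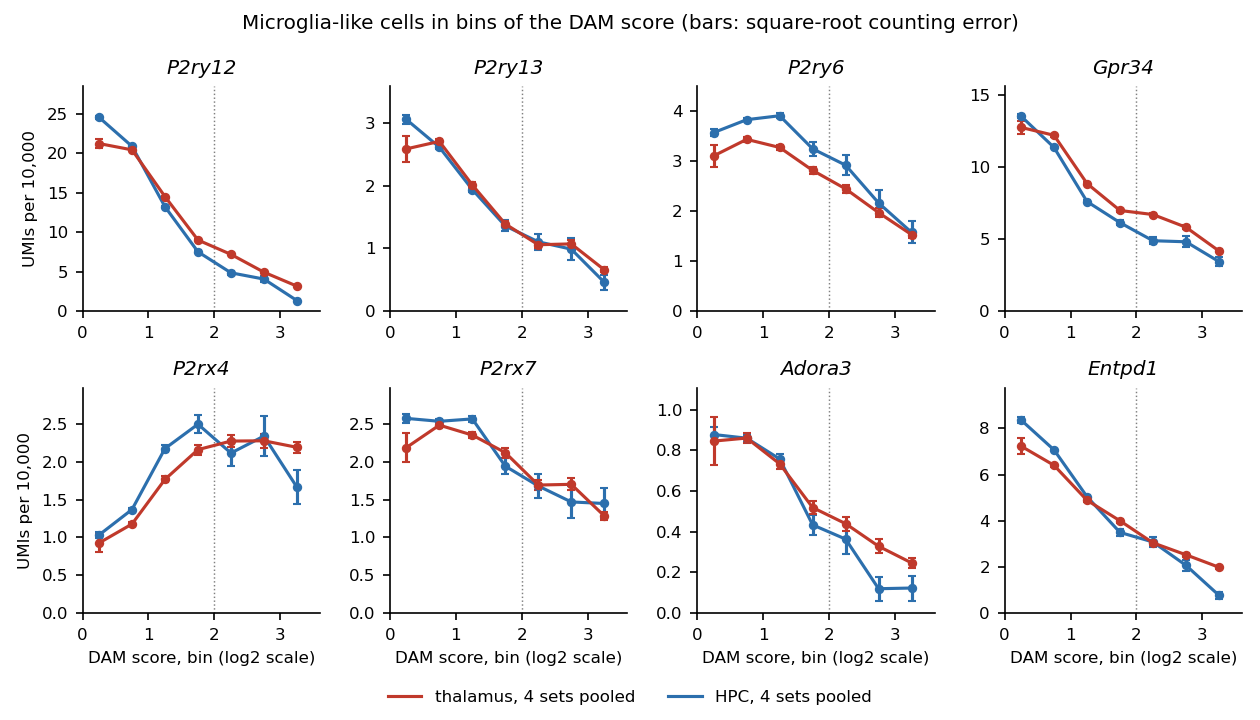
UMIs per 10000 (vertical axis, from 0) of 8 members in bins of the DAM score (horizontal axis, mean log2 level of the DAM genes), sets pooled by region, with the square root of the UMI count as the error. The last bin holds all scores of 3 and over, and the dotted line is the cut of 2.0. P2ry12 went from 21.2 to 3.18 in the thalamus, while P2rx4 went from 0.926 to 2.19.

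Microglia-like cells in the smaller states lay between the extremes for P2ry12. It had 13.9 UMIs per 10000 in 341 interferon-high cells, 11.2 in 461 inflammatory cells and 11.5 in 304 MHC class II-high cells, against 20.5 in homeostatic-like and 4.90 in DAM-like cells. Adora3 had 0.857 in interferon-high and 0.854 in homeostatic-like cells. Entpd1 had 5.73 in inflammatory and 3.91 in interferon-high cells. In 993 microglia-like cells poor in the nuclear RNA Malat1, which were 867 cells of the thalamus and 126 of the HPC, P2ry12 had 2.28. Without these cells all 8 members were called in the comparison of states as before.

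Of 35 other genes of nucleotide and nucleoside biology, 14 were tested between the states, and 2 were higher and 5 lower in DAM-like cells, or 7 of 14 against 52.1% of all genes tested, a share near this background. P2ry14, a receptor for UDP-glucose, had a log2 fold change of 2.56 ± 0.45 (adjusted p = 3.77e-05), and Enpp1, an enzyme that cuts ATP to AMP, had 1.47 ± 0.16 (adjusted p = 4.36e-08). The channel P2rx1 (-0.87 ± 0.32, adjusted p = 0.0253), the receptor gene P2ry10b (-0.87 ± 0.15, adjusted p = 2.82e-05), the nucleoside transporter gene Slc29a3 (-0.82 ± 0.07, adjusted p = 1.66e-10) and Pnp, which splits purine nucleosides (-0.65 ± 0.08, adjusted p = 4.84e-07), were among the lower. The median of the 14 genes was -0.01.

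Between the regions, P2ry6 and Adora3 were lower in microglia-like cells of the thalamus than in those of the HPC, and the other members tested did not pass. This was 2 of 8 members by edgeR on 13020 genes, of which 14.1% were called (9.12% higher and 4.94% lower). P2ry6 had 2.81, 3.12, 2.96 and 2.83 UMIs per 10000 in thalamus sets 1 to 4, and 3.93, 3.75, 3.61 and 3.55 in HPC sets 1 to 4. The regions did not overlap, and the log2 fold change was -0.28 ± 0.06 (adjusted p = 0.0189). Adora3 had 0.581, 0.686, 0.68 and 0.648 against 0.745, 0.856, 0.855 and 0.803, again without overlap (log2 fold change -0.26 ± 0.05, adjusted p = 0.0118). The share of all genes without such overlap was not determined. Both calls were lost without HPC set 2 (adjusted p = 0.0599 and 0.0522), and that of P2ry6 also without thalamus set 4 (adjusted p = 0.0627).

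P2ry12 and Entpd1 had larger differences but more spread. P2ry12 had 10.7, 13.7, 15.4 and 14.04 in the thalamus sets, and 13.98, 20.9, 21.3 and 20.9 in HPC sets 1 to 4. HPC set 1 lay within the range of the thalamus sets, while the other HPC sets were above it. The log2 fold change was -0.45 ± 0.13 (adjusted p = 0.0534), and -0.56 without HPC set 1 (adjusted p = 0.00346). Entpd1 had 3.77, 4.75, 5.71 and 4.67 in the thalamus sets, and 5.04, 7.08, 7.92 and 6.90 in those of the HPC (log2 fold change -0.44 ± 0.13, adjusted p = 0.0508, and 0.00597 without HPC set 1).

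P2ry13 (-0.32 ± 0.11, adjusted p = 0.0802), P2rx7 (-0.15 ± 0.05, adjusted p = 0.0864), Gpr34 (-0.20 ± 0.14, adjusted p = 0.378) and P2rx4 (0.27 ± 0.21, adjusted p = 0.425) did not pass. P2ry13 was called without HPC set 1 (-0.40, adjusted p = 0.0136). P2rx4 had 2.18 in HPC set 1 and 1.11 to 1.37 in the other HPC sets, against 1.48 to 2.03 in the thalamus, and without HPC set 1 it was higher in the thalamus (log2 fold change 0.55, adjusted p = 0.00947). With the set number as a block all 8 members were called, 7 lower and P2rx4 higher, where 30.2% of genes were called. The block assumes that sets of one number are paired, which the labels do not say. Blocked values were -0.44 for P2ry12 (adjusted p = 0.000186), -0.44 for Entpd1 (adjusted p = 5.39e-05), -0.19 for Gpr34 (adjusted p = 0.0305) and 0.31 for P2rx4 (adjusted p = 0.0163).

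**Figure D5:**
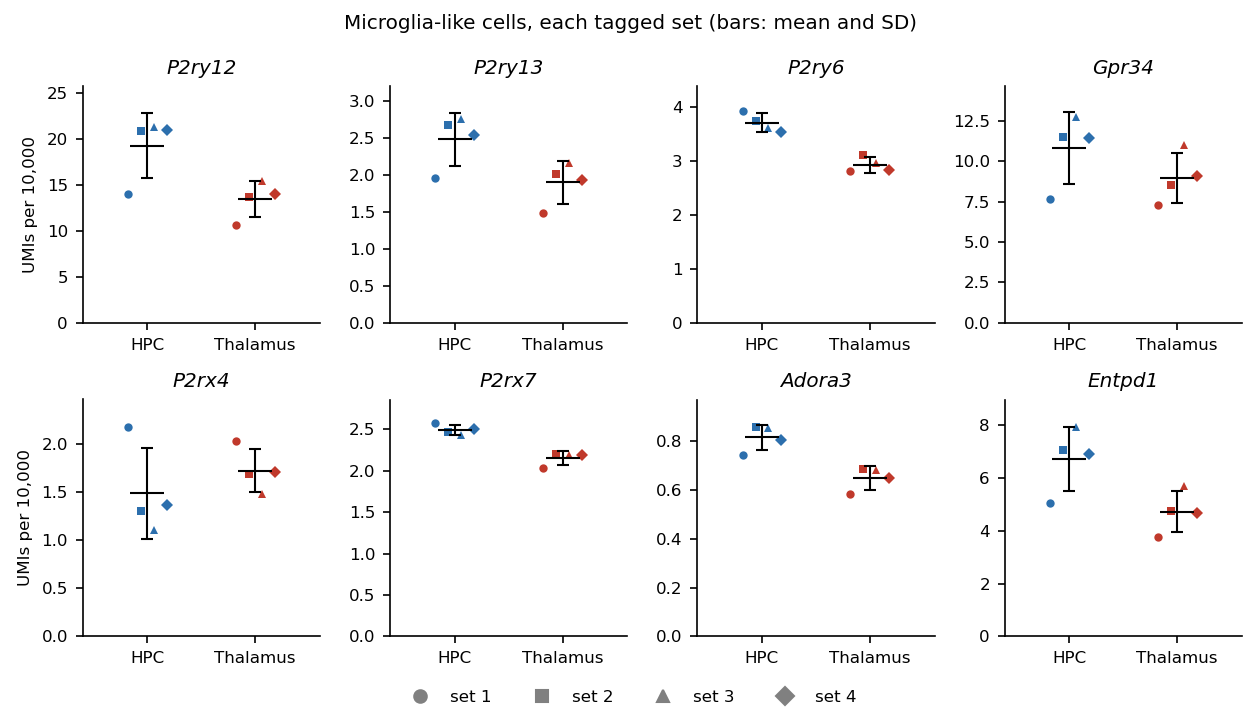
UMIs per 10000 (vertical axis, from 0) of 8 members in microglia-like cells of each tagged set, with the mean and SD of 4 sets per region. HPC set 1 (circle) lay apart from the other HPC sets for P2ry12 (13.98) and P2rx4 (2.18). The regions did not overlap for P2ry6, P2rx7 and Adora3, of which P2rx7 was not called. How many of all genes had no overlap was not determined.

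Other measures moved with the region in these cells. The summed level of the DAM list ranged from 232 to 493 UMIs per 10000 over thalamus sets and from 47.6 to 316 over HPC sets, and that of the homeostatic list 79.5 to 99.2 and 89.2 to 119. Of 18 tested genes of a list of 19 that respond to tissue dissociation, such as Fos and Jun, 8 were higher in the thalamus and 0 lower. Astrocyte markers summed to 2.14 to 2.64 in the thalamus and 3.11 to 3.73 in the HPC, and T cell markers to 0.282 to 0.322 and 0.136 to 0.158. Monocyte markers summed to 0.455 to 1.16 in the thalamus and 0.209 to 0.448 in the HPC, neutrophil markers to 4.33 to 4.48 and 4.81 to 5.10, and erythrocyte markers to 0.00226 to 0.00811 and 0.00876 to 0.0199. The erythrocyte levels rested on few UMIs. None of these 5 lists overlapped between regions, while those of border macrophages, endothelial cells, neurons and oligodendrocytes did. The part of these in the differences between regions was not tested. Of the 35 other pathway genes, 18 were tested and 3 called, near the 14.1% of all genes. Enpp2 (which makes lysophosphatidic acid) was higher in the thalamus (1.90 ± 0.32, adjusted p = 0.00603), while Entpd6 (-0.35 ± 0.08, adjusted p = 0.0192) and Slc29a3 (-0.21 ± 0.05, adjusted p = 0.0268) were lower.

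Within homeostatic-like cells no member was called between the regions. By edgeR this was 0 of 8 members among 12150 genes, of which 1.15% were (0.848% higher and 0.305% lower), and DESeq2 called 0 members as well. Adora3 had 0.853 ± 0.0491 (SD, n = 4) in the thalamus and 0.857 ± 0.0278 in the HPC (log2 fold change -0.01 ± 0.05, adjusted p = 0.957), and P2ry6 had 3.45 ± 0.141 and 3.78 ± 0.234 (-0.14 ± 0.07, adjusted p = 0.399). P2ry12 had 19.3 ± 1.15 and 21.1 ± 3.01 (-0.12 ± 0.09, adjusted p = 0.595). Entpd1 was the member with an unadjusted p under 0.05, with 5.12, 5.85, 6.72 and 6.02 in the thalamus sets, and 5.48, 7.35, 8.03 and 7.38 in those of the HPC (-0.25 ± 0.10, adjusted p = 0.296). It was called with the set number as a block (adjusted p = 0.00384, where 7.37% of genes were called) and without HPC set 1 (log2 fold change -0.33, adjusted p = 0.0114). P2ry12 was called without that set as well (-0.20, adjusted p = 0.0359). In this state 7 of 18 dissociation genes and 4 of 11 tested DAM genes were higher in the thalamus and 0 lower, and their part was not tested.

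Within DAM-like cells P2ry12 had a positive value that did not pass the threshold. Thalamus sets 1 to 4 had 4.88, 4.82, 5.34 and 5.22 UMIs per 10000, above HPC sets 1, 2 and 4 with 4.23, 3.06 and 3.61. By edgeR on 7 sets the log2 fold change was 0.44 ± 0.12 (adjusted p = 0.0798), and 0 of 8 members were called among 9582 genes, of which 1.83% were (1.04% higher and 0.783% lower). With the set number as a block 0 members were called too, against 2.7% of genes. At an unadjusted p under 0.05, P2ry12, Gpr34 (0.36 ± 0.13, adjusted p = 0.231) and P2ry6 (-0.31 ± 0.14, adjusted p = 0.345) passed. P2ry12 was called by DESeq2 (adjusted p = 0.0401) and without HPC set 1 (0.62, adjusted p = 0.0447). With a DAM cut of 1.5 its value was 0.15 (adjusted p = 0.646), and with DAM-like cells taken from 3 graph clusters it was 0.00131 (adjusted p = 1.00). Both of these settings also brought in HPC set 3, with 22 and 53 cells, so that 8 sets were fitted. The difference thus changed with how DAM-like cells were delimited and with this added set, which were not told apart. In the main fit the 3 HPC sets contributed 142, 40 and 27 cells.

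The region difference was then tested against the state in 1 model. The interaction asks whether the thalamus and the HPC differ in another way in DAM-like than in homeostatic-like cells. It was called for 0 of 8 members by edgeR, where 0.48% of genes were called (0.302% higher and 0.178% lower), and P2ry12 was the only member with an unadjusted p under 0.05 (0.52 ± 0.17 on the log2 scale, adjusted p = 0.254). So a difference between states in the effect of region was not shown for any member.

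Genes with the most similar pattern were sought over 14 cell classes and microglial states, among 6811 genes. These reached 50 CPM in some class or state (UMIs summed over all sets and scaled to an equal total per class or state). Pearson's r of log2 levels is a description here, since classes come from the same libraries and differ in depth. Closest to P2ry12 were Plcl2 (r = 0.988) and P2ry13 (0.984), and closest to P2ry13 were Tal1 (0.989) and P2ry12. P2ry6 was closest to Lacc1 (0.991) and Tbxas1 (0.984), Gpr34 to Sncaip (0.989) and Ptprm (0.985), and Adora3 to Thrsp (0.987) and Slc2a5 (0.968). P2rx4 was closest to Tlr1 (0.978) and Cd86 (0.968), P2rx7 to Rgs10 (0.968) and Nrp1 (0.958), Entpd1 to Tbc1d23 (0.983) and Hnmt (0.972), and Nt5e to Acpp (0.975) and Hsd11b1 (0.916). Adora2a was below the minimum level.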

How the data were processed

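The deposited matrices held raw UMI counts per gene and cell, which the authors made with Cell Ranger (7.1.0 per the file headers, while the methods of the study name another version) on the mouse genome mm10 (GRCm38), with no normalization. Whether reads from introns were counted is not given in the sources used here. Counts of multiplexing tags were left out of all totals. Cells with 200 to 7500 genes and at most 2% mitochondrial counts were kept, 24939 of 29190. No doublets were removed in addition to what the tag assignment of the authors may have left out (an alternative left out the 5% of cells with the most UMIs of each set).

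A cell was microglia-like with at least 64 UMIs per 10000 of 12 microglial markers and no other class. Other classes needed 3 or 4 detected markers, and cells near a gate were kept. State scores were means of log2(1 + UMIs per 10000), with cuts of 2.0 (DAM) and 2.5 (homeostatic, with a DAM score under 1.5). Near the microglial gate, 699 cells had 32 to 128 marker UMIs per 10000. Raw counts were summed per set where it had at least 20 cells of a group, and tested with edgeR 4.0.16 (TMM, filterByExpr, quasi-likelihood F-test) over all genes, with Benjamini-Hochberg adjustment and a threshold of 0.05. The scripts were tested on simulated data. One gene of the state lists is not reported here. An SE beside an edgeR log2 fold change is its absolute value divided by the square root of the F statistic. DESeq2 1.42.0 and other settings were alternatives, and clusters came from Seurat 5.3.0. Set numbers come from the names of the deposited tables. Deviations from the region means correlated between sets of one number at 0.519, 0.144, 0.476 and 0.173. Sets of unlike numbers had -0.474 to 0.149. Thalamus set 3 with HPC set 2 (0.149) was above the pair numbered 2 (0.144), so pairing is unclear for that number. The main fits between regions did not use the numbers. As an alternative the numbers were taken to pair the sets, and blocked values are given where they change a call.

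Members and lists were chosen with earlier results of these data known. Members were named whatever their value, of 35 pathway genes up to 6 per comparison with the largest change among those called, and by likeness 2 genes per member. Intervals and floors (3 counts) cover counting error only.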

Additional observations from a re-analysis of the deposited data

Results flagged for a closer look

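Among 54 groups of 4 sets, 5 had a set far from the other 3, by the gap to the nearest set as a share of the whole range, where chance alone gives about 1 in 20. All 5 were low values of a set 1. P2ry12 had 13.98 UMIs per 10000 in microglia-like cells of HPC set 1, against 20.9 to 21.3 in the other HPC sets, and 16.6 in homeostatic-like cells of that set, against 22.1 to 23.1. P2ry13 had 2.17 in homeostatic-like cells of HPC set 1, against 2.749 to 2.83, and 2.19 in those of thalamus set 1, against 2.69 to 2.72. P2rx7 had 2.03 in microglia-like cells of thalamus set 1, against 2.18 to 2.21.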

How the results depend on the processing

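Between the states, 8 of 8 members were called under every omission of 1 set. Their number was 4 between regions in microglia-like cells, against 2, without a filter on low counts, by DESeq2, with a mitochondrial limit of 5% and with a stricter gate (P2ry12 and Entpd1 added), and 8 with the replicate block (3934 genes against 1830). Leaving out 1 set gave 0 (without HPC set 2) to 6 members (without HPC set 1), 1 without thalamus set 4, and 798 to 3066 genes. Here and below the cause was not tested.

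In homeostatic-like cells 140 genes were called, 284 without a filter, 262 by DESeq2 and 896 with the replicate block (1 member, Entpd1), and 52 to 648 genes and 0 to 2 members without 1 set (2 without HPC set 1). In DAM-like cells 175 genes were called, 399 without a filter (2 members), 65 without the 5% of cells with the most UMIs (1 member, P2ry6), 35 with equal cell numbers, 62 to 171 without 1 set (0 to 1 member), and 1 member by DESeq2. In T- or NK-like cells 17 genes were called, 99 without a filter, 33 by DESeq2, 138 with the block, 9 with a stricter gate, 3 with equal cell numbers and 5 to 19 without 1 set, with 0 members among them. Between states 5865 genes were called, 2649 with equal cell numbers, 2363 within the HPC (chosen after seeing the data) and 5059 to 5889 without 1 set.

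Log2 fold changes that turned sign were of members not called. In homeostatic-like cells these were Gpr34 without a filter (-0.012) and with equal cell numbers (-0.00528), P2rx4 with the block (0.011) and P2ry13 with a stricter gate (0.022). In DAM-like cells they were P2ry13 without a filter (0.00577), without Malat1-poor cells (0.00408) and with equal cell numbers (0.14), Entpd1 with the limit of 5% (-0.000392), from graph clusters (-0.36) and with a cut of 1.5 (-0.036), and P2rx4 with that cut (-0.064), where the last 2 settings were chosen after seeing the data. In T- or NK-like cells Nt5e had 0.26 with equal cell numbers, and the interaction of P2rx7 was 0.048 without Malat1-poor cells. Without 1 set, values in homeostatic-like cells ran from -0.067 to 0.00139 for P2rx7, -0.16 to 0.24 for P2rx4, -0.095 to 0.062 for Gpr34, -0.094 to 0.033 for P2ry13 and -0.053 to 0.014 for Adora3. In DAM-like cells they ran from -0.063 to 0.15 for P2rx4, -0.13 to 0.028 for P2ry13 and -0.33 to 0.00483 for P2rx7, and in T- or NK-like cells from -0.60 to 0.13 for Nt5e and -0.025 to 0.51 for P2rx7.

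The stricter gate could not be fitted in DAM-like cells. The replicate block changed no other call. The 3 HPC sets in the fit of DAM-like cells held 27, 40 and 142 such cells, and the part of this number in the calls was not tested. Pooled levels without HPC set 1 were added after seeing the data.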
